A study of Arabidopsis thaliana with 9 samples.

Results

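Beta-tubulin is encoded in Arabidopsis thaliana by 9 genes, TUB1 to TUB9. They were taken by their AGI identifiers, and all 9 were present among the 37184 genes of the count tables. The genes were TUB1 (AT1G75780), TUB2 (AT5G62690), TUB3 (AT5G62700), TUB4 (AT5G44340), TUB5 (AT1G20010), TUB6 (AT5G12250), TUB7 (AT2G29550), TUB8 (AT5G23860) and TUB9 (AT4G20890).

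Beta-tubulin pairs with alpha-tubulin to form the dimer from which microtubules are built. In growing plant cells, microtubules under the plasma membrane guide the enzyme complexes that lay down cellulose, and during division they form the spindle and the phragmoplast. Gamma-tubulin complexes start new microtubules, tubulin folding cofactors assemble the dimer, and microtubule-associated proteins bundle, sever or stabilise the polymer. Small RNA libraries can hold short interfering RNAs made from a gene's transcripts and also fragments of its messenger RNA. A count per gene does not tell these apart.

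Small RNA was counted per gene in 3 libraries of the dxo1-2 mutant and 3 libraries of wild-type Col-0, and rRNA-depleted total RNA was sequenced in 3 dxo1-2 libraries with a strand-specific kit. The dxo1-2 plants carry a mutant allele of DXO1, the Arabidopsis member of a family of enzymes that act on the 5′ end of RNA. Plants of both genotypes were 21 days old, labelled as seedlings, and had grown on soil under long days (16 h light, 8 h dark) following cold stratification for 2 days at 4 °C. The labels describe no transgene and no treatment, and they do not say how many plants went into a sample. Wild-type RNA-seq was not analysed here, so RNA-seq levels are given for dxo1-2 alone.

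Counts on genes ranged from 5022945 to 5698185 in the dxo1-2 small RNA libraries, from 3976221 to 4393015 in the Col-0 small RNA libraries and from 60138933 to 71210737 in the dxo1-2 RNA-seq libraries. Small RNA levels are given as CPM, counts per 1000000 counts after TMM scaling between libraries. DXO1 (AT4G17620) itself had 60, 46 and 57 small RNA counts in dxo1-2 and 26, 45 and 21 in Col-0, and 108, 76 and 113 RNA-seq counts in dxo1-2, which checks nothing about the genotype without a wild-type RNA-seq level. Markers of green leaf, 6 genes such as RBCS1A and CAB1, summed to between 13402 and 16387 CPM in the RNA-seq libraries. The 5 flower and pollen markers summed to between 0.599 and 1.13 CPM there, with the pollen gene VGD1 at 0 counts, and of the 7 root markers PLT1, PLT2, RHD6 and EXPA7 had 0 counts and SHV2 1 count. The root markers SHR and SCR were present there, with 388, 284 and 306 counts for SHR and 329, 445 and 272 counts for SCR.

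Col-0 replicate 3 stood apart from the other Col-0 small RNA libraries on the tubulin genes. The 9 beta-tubulin genes together had 81.8 CPM in Col-0 replicate 3, against 34.7 and 37.6 CPM in Col-0 replicates 1 and 2, a level 2.26 times their mean. The alpha-tubulin genes stood 2.22 times higher there, the leaf markers 2.03 times and the actin genes 1.95 times, while the median over 6530 tested protein-coding genes was 1.07 times. Values are therefore given with and without this library where it moves them. In bulk samples of seedlings, fewer cells of a type and less RNA per cell cannot be told apart.

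Small RNA on the beta-tubulin family as a whole overlapped between genotypes. The 9 genes summed to 54.0, 68.8 and 47.8 CPM in dxo1-2 libraries, from 353, 377 and 276 counts, against 34.7, 37.6 and 81.8 CPM in Col-0 libraries, from 125, 143 and 307 counts. The dxo1-2 libraries thus lay above Col-0 replicates 1 and 2 and below Col-0 replicate 3. The means were 56.9 ± 10.8 CPM in dxo1-2 and 51.4 ± 26.4 CPM in Col-0 (SD, n = 3 each).

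The members were chosen by identifier as a gene family, and the family was picked with measured values of these libraries in view, but the sources used here do not record which values. The small RNA comparison of the members is therefore given as a description. Counts of members past a threshold are set beside the share of all genes past it, and no test of the members is read from them. All 9 members passed the filter on low counts. Their log2 fold changes, dxo1-2 over Col-0, came from an edgeR fit over all 11534 tested genes and had a median of 0.19. The median over all tested genes was -0.019, and over the 6530 tested protein-coding genes 0.48. Of the 9 members, 7 had a fold change above 0 and 2, TUB2 and TUB6, below 0. These directions rested on the scaling and on single libraries: 8 members were above 0 with library totals alone or all lines of the table as library size and 1 under scaling on small nuclear RNA genes. Leaving out Col-0 replicate 3 gave 8 members above 0, and leaving out either of the other Col-0 libraries gave 3. Without dxo1-2 replicate 1 there were 5, and without dxo1-2 replicate 2 there were 3 of the 8 members still tested. The median over the protein-coding genes tested in each fit moved as well. It was 0.85 without Col-0 replicate 3, against 0.72 for beta-tubulin. With library totals alone it was 0.81 against 0.51, and with all lines 1.12 against 0.76. Under scaling on small nuclear RNA genes it was -0.16 against -0.43. Without Col-0 replicate 1 it was 0.56 against -0.14, and without Col-0 replicate 2 0.51 against -0.12.

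TUB5 was the 1 member whose groups did not overlap, and it had the highest mean small RNA level of the family in dxo1-2. It had 11.6, 13.1 and 10.7 CPM in dxo1-2 libraries, from 76, 72 and 62 counts, against 5.0, 4.73 and 8.79 CPM in Col-0 libraries, from 18, 18 and 33 counts. Every dxo1-2 library was above every Col-0 library, and Col-0 replicate 3 was the nearest. The log2 fold change was 0.93 ± 0.27 (SE, n = 3 each). The ratio of the depth-scaled summed counts was 1.91, with an exact binomial 95% interval of 1.45 to 2.54 that covers counting error only.

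Of the 9 members 1 was past the adjusted p threshold of 0.05 of that fit in the higher direction and 0 in the lower direction. Across all tested genes 26.8% were called higher and 23.0% lower, and in 31.1% the dxo1-2 libraries all lay above the Col-0 libraries. These shares cover genes of all classes, here and beside the lists below. Among the 6530 tested protein-coding genes, the class of the tubulin genes, 2642 were called higher and 1119 lower. Calls in the higher direction were thus more common among protein-coding genes than the share over all classes shows. Without Col-0 replicate 3 the count was 3 higher (TUB3, TUB4 and TUB5), beside 28.1% of all 12970 genes tested there. When Col-0 replicate 1 was left out, 1 member (TUB6) was past it in the lower direction, beside 18.0% of all 13059 genes tested there. Under scaling on small nuclear RNA genes 2 members (TUB2 and TUB6) were, beside 54.1% of all genes. The counts moved with single libraries and with the scaling. The log2 fold change of TUB5 was 1.25 ± 0.26 without Col-0 replicate 3 and 0.30 with scaling on small nuclear RNA genes.

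TUB4 carried the second highest small RNA level in dxo1-2. It had 8.57, 12.4 and 11.4 CPM in dxo1-2 libraries, against 6.39, 5.78 and 16.5 CPM in Col-0 libraries. The dxo1-2 values lay between the low pair of Col-0 libraries and Col-0 replicate 3, so the groups overlapped. The log2 fold change was 0.17 ± 0.35 with all libraries and 0.79 ± 0.27 without Col-0 replicate 3.

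TUB2 and TUB3 are neighbours in the genome and near copies of each other, so their reads can be shared. TUB2 had 53, 51 and 31 small RNA counts in dxo1-2 and 21, 20 and 61 in Col-0. TUB3 had 70, 53 and 51 in dxo1-2 and 22, 21 and 62 in Col-0. The ratio of TUB2 to TUB3 ran from 0.608 to 0.962 in dxo1-2 and from 0.952 to 0.984 in Col-0, where the pair stood within 1 count of each other in every library. In RNA-seq it ran from 1.24 to 1.36. The sources used here do not give the rule for reads with several matches. The summary line of reads without a unique match held 10096710, 8127586 and 8107769 in the RNA-seq libraries and 0 in every small RNA library. The 2 data types thus differed in how such reads were recorded. The values of TUB2 and TUB3 cannot be taken as separate measurements of the pair.

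On the CPM scale the dxo1-2 libraries lay within the span of the Col-0 libraries for both genes. Their log2 fold changes were -0.27 ± 0.39 for TUB2 and 0.05 ± 0.35 for TUB3, and the pair summed gave -0.094. Without Col-0 replicate 3 the values were 0.42 ± 0.32 and 0.72 ± 0.26.

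TUB6, whose transcript is known to be cold-regulated, had the lowest fold change. It had 3.67, 4.20 and 1.90 CPM in dxo1-2 libraries, against 3.06, 8.41 and 5.33 CPM in Col-0 libraries. The groups overlapped, and the high Col-0 value came from replicate 2, with 32 counts, rather than from replicate 3. The log2 fold change was -0.78 ± 0.41, and -0.85 ± 0.45 without Col-0 replicate 3. It was -1.10 once Col-0 replicate 1 was left out. The gene's span overlaps a neighbouring gene.

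The other members had few small RNA counts and overlapping groups. TUB1, best known from roots and from its repression by light, had 11, 17 and 11 counts in dxo1-2 and 3, 7 and 11 in Col-0. TUB9, known from pollen, had 22, 41 and 19 counts in dxo1-2 and 12, 6 and 25 in Col-0. TUB7 had 17, 31 and 17 counts in dxo1-2 and 11, 11 and 14 in Col-0. TUB8 had 24, 21 and 8 counts in dxo1-2 and 4, 6 and 19 in Col-0. Log2 fold changes of these members lay between 0.19 and 0.27 with standard errors of 0.39 to 0.55, so neither a change nor its absence could be read at this depth. Without Col-0 replicate 3 the values were 0.67 ± 0.56 for TUB1, 0.28 ± 0.45 for TUB7, 1.10 ± 0.58 for TUB8 and 0.90 ± 0.51 for TUB9. TUB1, TUB7 and TUB9 have spans that overlap neighbouring genes.

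**Figure D1:**
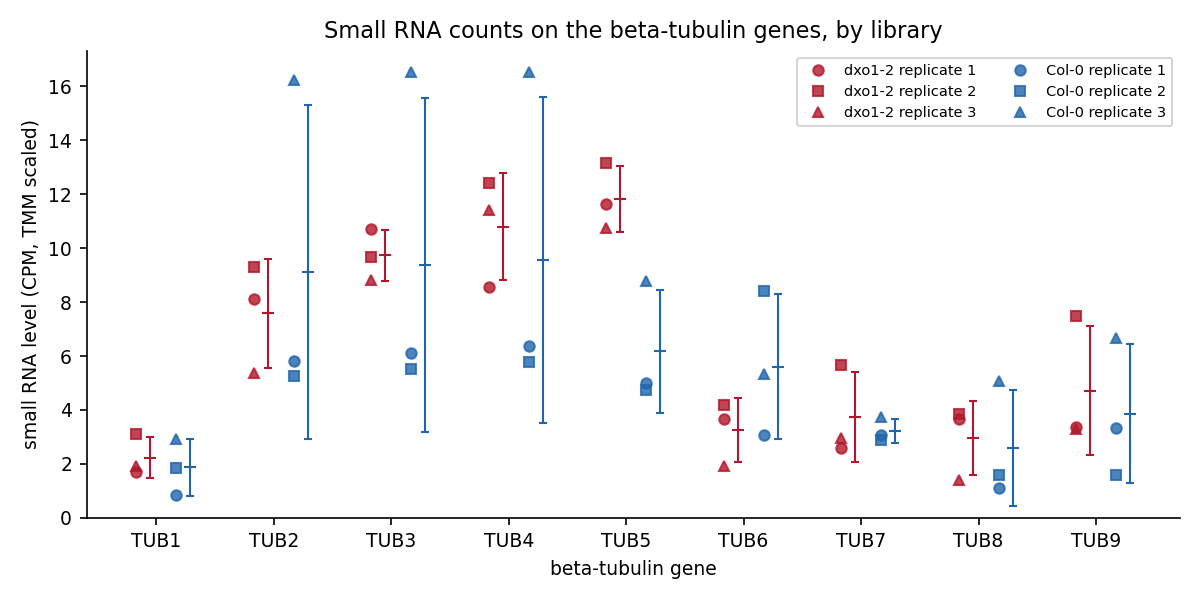
Small RNA level in CPM (vertical axis) of the 9 beta-tubulin genes in 3 dxo1-2 libraries (red) and 3 Col-0 libraries (blue), with the mean and SD beside the points. TUB5 is the 1 gene whose groups do not overlap, and Col-0 replicate 3 (blue triangles) is the highest Col-0 library for 8 of 9 genes.

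Most members had their highest level in the same library of a genotype. Col-0 replicate 3 was the highest Col-0 library for 8 of 9 members, TUB6 being the exception, and dxo1-2 replicate 2 the highest dxo1-2 library for 8 of 9, TUB3 being the exception. TUB2, TUB5, TUB6 and TUB8 had fewer counts in dxo1-2 replicate 2 than in replicate 1, and led there only after scaling. The same 2 libraries were each highest for 5 of 5 tested alpha-tubulin genes and 0 of 2 tested gamma-tubulin complex genes. As a share of the family's small RNA counts, TUB5 took 21.0% ± 1.74 in dxo1-2 and 12.6% ± 1.83 in Col-0 (SD, n = 3 each). These shares ran from 19.1% to 22.5% in dxo1-2 and from 10.7% to 14.4% in Col-0, without overlap. The share of TUB4 was 19.3% ± 4.16 in dxo1-2 and 18.0% ± 2.43 in Col-0, and that of TUB3 17.5% ± 3.02 and 17.5% ± 2.76, with overlapping groups in each case. The share does not depend on the scaling between libraries, and it was used here as a description of the family only.

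In the RNA-seq libraries of dxo1-2 the family was led by TUB4. Levels between genes were compared as CPM per kilobase of gene span, with RNA-seq CPM taken over all counts on genes and spans from the RefSeq table of TAIR10.1. The span includes introns, and the assembly name differs from the TAIR10 build of the counts. TUB4 had 96.8, 103 and 92.4 CPM per kb, above 98.9% of protein-coding genes, and its mean was 2.22 times that of TUB5. TUB4 made up 33.0% ± 0.634 of the family's sum of 295 ± 12.1 CPM per kb (SD, n = 3). With only nuclear genes as library size that sum was 574 CPM per kb.

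The order below TUB4 was TUB5 with 43.8 ± 1.56, TUB2 with 38.3 ± 0.724 and TUB3 with 29.0 ± 2.00 CPM per kb (SD, n = 3 each). None of these neighbours in the order overlapped over the 3 libraries. The places of TUB2 and TUB3 remain uncertain all the same, since these near copies can share reads in every library. TUB7 and TUB9 followed with 24.3 ± 1.49 and 23.8 ± 1.5 CPM per kb, and their ranges overlapped, so their order is not resolved. TUB6 stood at 19.7 ± 1.5 and TUB8 at 15.6 ± 1.10 CPM per kb. As CPM without length, the means ran from TUB9 with 58.8 ± 3.71 to TUB6 with 52.8 ± 4.04 and TUB7 with 52.0 ± 3.19. There the range of TUB6 overlapped those of TUB9 and TUB7. The order of means within these 3 thus differed with the length used, and the place of TUB6 is not resolved as CPM.

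TUB1 was the lowest member by a wide margin. It had 3.13, 3.23 and 2.64 CPM per kb, and TUB8, the next member up, stood at 5.21 times its mean. TUB1 was still above 59.4% of protein-coding genes, and the family spanned 32.5-fold from TUB1 to TUB4. TUB9 was well covered, with 3954, 3493 and 4051 RNA-seq counts, in libraries where the pollen marker VGD1 had 0 counts.

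**Figure D2:**
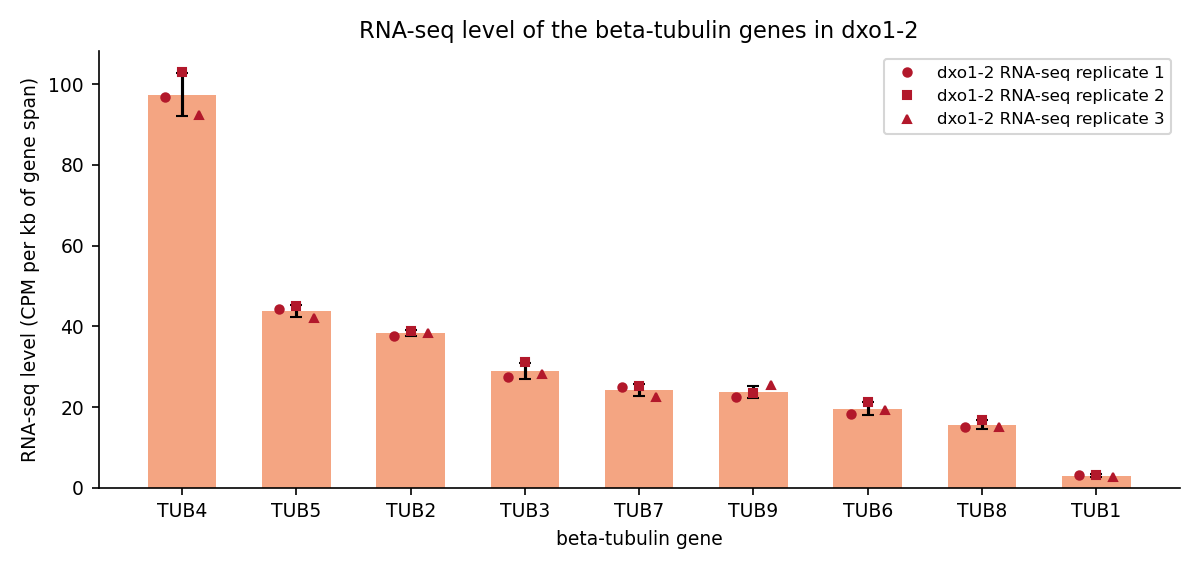
RNA-seq level in CPM per kilobase of gene span (vertical axis) of the 9 beta-tubulin genes in 3 dxo1-2 libraries, as mean (bar), SD (error bar) and single libraries (points). TUB4 stands at 97.4 and TUB1 at 3.00, and the ranges of TUB7 and TUB9 overlap.

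Small RNA counts on the family followed the order of its RNA-seq counts. Across the 9 members, Spearman's rho between mean small RNA CPM and mean RNA-seq CPM was 0.95 for the dxo1-2 small RNA libraries and 0.917 for the Col-0 small RNA libraries, both against the same dxo1-2 RNA-seq libraries. This is a description across genes, which share libraries and whose counts on both sides grow with gene length. The span of small RNA levels was narrower than that of RNA-seq, with TUB5 at 5.31 times the CPM of TUB1 in dxo1-2. RNA-seq levels, as CPM without length, ran from 8.05 for TUB1 to 196 for TUB4.

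Relative to their RNA-seq counts, most members carried small RNA near the middle of all protein-coding genes. The ratio of small RNA CPM to RNA-seq CPM in dxo1-2, in which gene length cancels, had a median of 0.0801 over the 9 members and of 0.0794 over the 17226 protein-coding genes with at least 1 CPM in RNA-seq. TUB4 had the lowest ratio of the family, 0.0550, above 36.6% of those genes. TUB5 had 0.0867, above 53.0% of them. TUB1 had the highest ratio, 0.277, above 81.7% of them, from 39 small RNA counts in all over the dxo1-2 libraries, and TUB3 followed with 0.133. Small RNA and RNA-seq libraries differed in the record of reads without a unique match. The place of TUB3, a near copy of TUB2, is therefore uncertain.

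**Figure D3:**
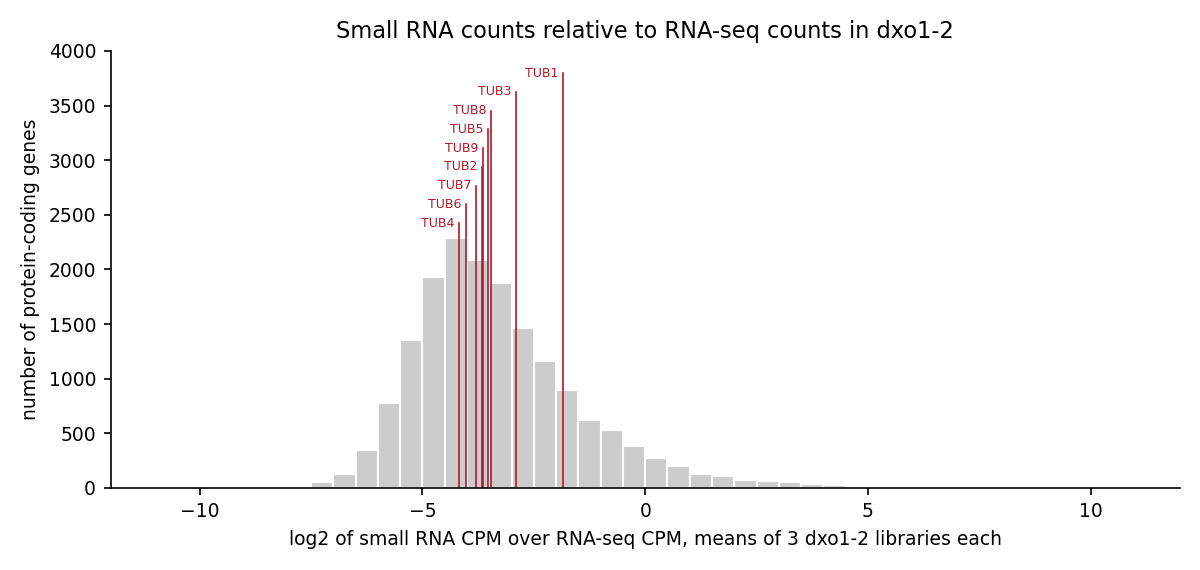
Number of protein-coding genes (vertical axis) by the log2 ratio of small RNA CPM to RNA-seq CPM in dxo1-2 (horizontal axis; means of 3 libraries each, with 285 genes of ratio 0 left out), with the beta-tubulin genes as red lines. From TUB4 to TUB8 the lines crowd near the median of 0.0794, and TUB1 stands to the right at 0.277.

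The alpha-tubulin genes, whose products are the other partner of the dimer, showed no change in small RNA that passed the test. Of 6 genes 5 were tested, and 0 were higher and 0 lower in edgeR, beside 26.8% and 23.0% of all tested genes. The median of the tested members was -0.41. At an unadjusted p under 0.05 in edgeR there were 0 alpha-tubulin genes, beside 6465 of all 11534 tested genes. DESeq2 also called 0 alpha-tubulin genes, beside 23.1% higher and 17.9% lower of all tested genes. TUA6 (AT4G14960) had 63, 80 and 68 counts in dxo1-2 and 33, 46 and 75 in Col-0. Its log2 fold change was -0.20 ± 0.27 (adjusted p = 0.553, edgeR). TUA2 (AT1G50010) had the lowest value, -0.53 ± 0.32 (adjusted p = 0.183).

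The remaining alpha-tubulin genes were close to these. TUA3 (AT5G19770) had a log2 fold change of -0.07 ± 0.41, TUA4 (AT1G04820) of -0.42 ± 0.30 and TUA5 (AT5G19780) of -0.41 ± 0.40. TUA2 and TUA4, and likewise TUA3 and TUA5, are near copies that can share reads. TUA1 (AT1G64740), known from pollen, had 3, 3 and 0 counts in dxo1-2 and 2, 1 and 4 in Col-0 and was too low to be tested. In all 5 tested genes Col-0 replicate 3 was the highest Col-0 library, and without it the fold changes of TUA3, TUA4, TUA5 and TUA6 were 0.65, 0.03, 0.18 and 0.13, that of TUA2 was still below 0 at -0.21, and none of the 5 passed. Under scaling on small nuclear RNA genes all 5 were lower, beside 54.1% of all tested genes.

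Beta- and alpha-tubulin had close RNA-seq totals in dxo1-2. The 9 beta-tubulin genes summed to 295 ± 12.1 CPM per kb and the 6 alpha-tubulin genes to 299.6 ± 22.2 CPM per kb (SD, n = 3 each), and the ranges over libraries overlapped. As CPM without length the sums were 707 ± 28.2 and 680 ± 50.3. Both families hold near copies that can share reads, and the spans include introns. TUA3 led the alpha-tubulin genes with 91.1 ± 8.30 CPM per kb.

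**Figure D4:**
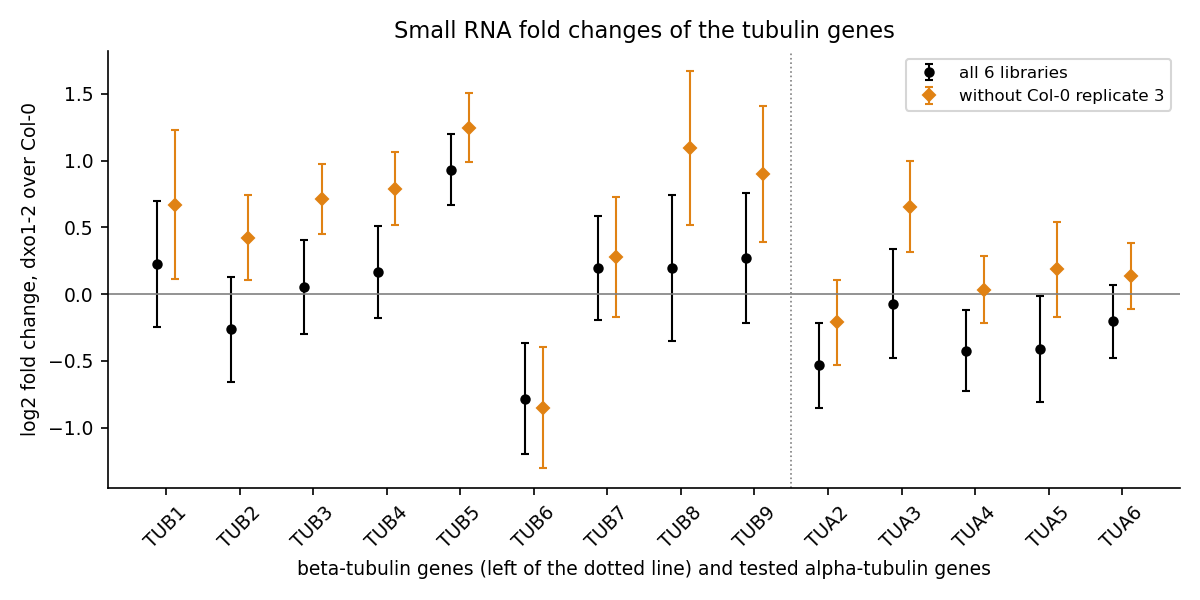
Log2 fold change of small RNA, dxo1-2 over Col-0 (vertical axis), with its standard error, for the 9 beta-tubulin and 5 tested alpha-tubulin genes, with all 6 libraries (black) and without Col-0 replicate 3 (orange). TUB5 stands at 0.93 and 1.25, TUB6 is below 0 in each fit, and most other genes lie higher once Col-0 replicate 3 is left out.

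Few other genes of the microtubule pathway carried enough small RNA to be tested. Of 11 gamma-tubulin complex genes 2 were tested and 0 passed in either direction, beside 26.8% higher and 23.0% lower of all tested genes. Of the 2, 0 had an unadjusted p under 0.05 in edgeR, beside 6465 of all 11534 tested genes. DESeq2 also called 0 of them, beside 23.1% higher and 17.9% lower of all tested genes. The 2 tested genes were SPC98 (AT5G06680), which encodes a core subunit, with a log2 fold change of 0.16 ± 0.37 (adjusted p = 0.740, edgeR), and emb1427 (AT1G80260), with -0.0035 ± 0.35 (adjusted p = 0.994). The median of the tested members was 0.078. Among the highest RNA-seq levels of that list were GIP2 and GIP1, small subunits, with 5.13 ± 0.711 and 5.06 CPM per kb, and emb1427 with 5.07 CPM per kb. Their order is not resolved, and as CPM without length emb1427, with 25.9, stood above GIP2, with 4.01.

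Of 6 tubulin folding genes 1 was tested, and it rose, beside 26.8% of all tested genes. POR (AT4G39920), which encodes folding cofactor C, had 13, 18 and 14 counts in dxo1-2 and 4, 3 and 5 in Col-0, and the groups did not overlap, as in 31.1% of all tested genes. Its log2 fold change was 1.22 ± 0.44 (adjusted p = 0.0357, edgeR). The call was lost in 10 of 14 alternatives, at adjusted p values up to 0.343, DESeq2 (0.140) and the fit with the replicate number as a block (0.0883) among them. TTN5, a small GTPase of the ARL2 type, had the highest RNA-seq level of the list per kb, 11.96 ± 0.115 CPM per kb, while as CPM without length KIS stood above it (19.0 against 16.3).

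Of 23 genes for microtubule-associated proteins 4 were tested, of which 0 rose and 1 fell, beside 26.8% and 23.0% of all tested genes. The median over those 4 was 0.30 on the log2 scale. ATMAP65-6 (AT2G01910), of the bundling MAP65 family, had 765, 577 and 629 counts in dxo1-2 and 567, 532 and 461 in Col-0, far more small RNA than any beta-tubulin gene. Its level was 110 ± 6.0 CPM in dxo1-2 and 140 ± 17.3 CPM in Col-0 (SD, n = 3 each), a log2 fold change of -0.34 ± 0.094 (adjusted p = 0.00968, edgeR). The direction turned to 0.23 with all lines of the table as library size, and the call was lost with library totals alone (adjusted p = 0.936). FASS (AT5G18580), a regulator of the preprophase band, had 24, 25 and 24 counts in dxo1-2 and 5, 15 and 10 in Col-0, and its log2 fold change of 0.61 ± 0.38 did not pass (adjusted p = 0.203, edgeR). SPR1, a plus-end protein, had the highest RNA-seq level of the list per kb, 28.2 ± 1.66 CPM per kb, while as CPM without length MOR1, with 78.1, stood above SPR1, with 35.7.

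The actin genes, the other cytoskeletal family measured, had 2 of 4 tested members higher and 0 lower, of 8 in all, beside 26.8% and 23.0% of all tested genes. Their median log2 fold change was 0.91. ACT2 (AT3G18780) had 110, 120 and 115 counts in dxo1-2 and 31, 36 and 51 in Col-0, a log2 fold change of 0.88 ± 0.21 (adjusted p = 0.00368, edgeR). ACT11 (AT3G12110) had 21, 18 and 22 counts in dxo1-2 and 2, 3 and 3 in Col-0. Its log2 fold change was 2.22 ± 0.43 (adjusted p = 0.00115), and it passed in all 14 alternatives. The call of ACT2 was lost under scaling on small nuclear RNA genes (adjusted p = 0.435). ACT2 had the highest RNA-seq level of the list, 129 ± 10.7 CPM per kb.

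Of 12 genes of cellulose synthesis, whose complexes follow the microtubules, 9 were tested. Of these 1 was higher and 0 were lower, beside 26.8% and 23.0% of all tested genes. The median log2 fold change was 0.17. CESA6 (AT5G64740), a subunit of the complex of the primary wall, had 72, 81 and 93 counts in dxo1-2 and 31, 22 and 33 in Col-0. Its log2 fold change was 0.85 ± 0.24 (adjusted p = 0.0110, edgeR). The call was lost without Col-0 replicate 2 (adjusted p = 0.0513), without dxo1-2 replicate 3 (0.0567) and under scaling on small nuclear RNA genes (0.589). CESA5 (AT5G09870), another subunit, had a log2 fold change of 0.74 ± 0.38, which missed the threshold (adjusted p = 0.125, edgeR). Leaving out Col-0 replicate 3 brought it past the threshold (0.0435). Without that library 3 members of this list and 4 actin genes were higher, beside 28.1% of all genes tested there. CEV1, which encodes the subunit CESA3, had the highest RNA-seq level of the list, 69.7 ± 1.80 CPM per kb.

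Some of the tissue markers also differed in small RNA. The 6 leaf markers summed to between 1773 and 2222 CPM in dxo1-2 libraries and between 505 and 1125 CPM in Col-0 libraries. Of the 6, 2 rose, beside 26.8% of all tested genes. These were CAB1 and CAB2, which are near copies and made up most of the dxo1-2 sum. The other leaf markers did not pass and had overlapping groups, with log2 fold changes from -0.29 for RCA to 0.47 for RBCS1A. The 7 root markers summed to between 27.5 and 31.6 CPM in dxo1-2 and between 6.05 and 9.44 CPM in Col-0, and SHR and SCR made up most of the dxo1-2 sum. PLT1, too low to be tested, lay the other way without overlap, with 2, 3 and 3 counts in dxo1-2 and 11, 5 and 7 in Col-0. The 2 tested root markers, SHR and SCR, rose, beside the same 26.8% of all tested genes. SHR had 18.2 ± 0.960 CPM in dxo1-2 and 1.79 ± 1.05 CPM in Col-0 (SD, n = 3 each). The 5 flower and pollen markers summed to between 0.692 and 1.84 CPM in dxo1-2 and between 0.526 and 1.33 CPM in Col-0, and none was tested. The part of the tissue make-up of the samples in the tubulin values was not tested.

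The genes whose small RNA profile over the 6 libraries was closest to that of the summed beta-tubulin counts were AVP1, HA1, DRT112, GRP7 and LHCA4. Closeness was the root mean square distance of centred log2 CPM, among 6040 genes averaging 50 or more counts. AVP1 (AT1G15690), which encodes a vacuolar proton pump, had the smallest distance, 0.135. It had 16.8, 25.4 and 19.2 CPM in dxo1-2 libraries and 10.8, 12.1 and 28.0 CPM in Col-0 libraries, with Col-0 replicate 3 again the highest. The distances of the others lay between 0.164 for the plasma membrane proton pump gene HA1 and 0.169 for LHCA4.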

How the data were processed

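The authors deposited raw counts per gene, 1 table per library, with 37184 gene lines and 5 summary lines. The submitters' processing notes name the build TAIR10 and the tools bedtools, Bowtie, HISAT2, HTSeq and DESeq2. Roles, versions and settings, strand and multiple matches included, are not given in the sources used here. Overlapping genes and near copies are therefore uncertain. Symbols, spans and neighbours came from the RefSeq table of TAIR10.1, which matched 36899 identifiers.

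Summary lines stayed out of library sizes and tests. They made up 72.5% to 77.8% of all lines in the small RNA tables and 21.0% to 22.6% in the RNA-seq tables. Small RNA counts were fitted in edgeR 4.0.16 under R 4.3.3 (quasi-likelihood test, two-sided). The model held genotype alone, with TMM scaling and edgeR's default filter, and p-values were adjusted by Benjamini-Hochberg over all tested genes, with a threshold of 0.05. The ± of a fold change is an approximate standard error, the size of the log2 fold change divided by the root of F. The replicates are labelled biological in the series' design text. RNA-seq levels got no test.

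The members, lists, alternatives and rule for named genes were chosen with earlier results of these data known. The rule named all beta- and alpha-tubulin genes, the 2 members with the smallest adjusted p and the member with the highest RNA-seq level of each other list, and the 5 genes with the closest profile. Marker genes were named besides. Alternatives used DESeq2 1.42.0, limma 3.58.1, other scalings, filters and library sizes, a replicate block and fits without each library. Coding lengths and sequences were not used here.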

Additional observations from a re-analysis of the deposited data

How the results depend on the processing

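Over all genes, 3093 were called higher and 2651 lower. Library totals alone gave 4649 and 827 (84.9% of calls higher, against 53.8%), and the other scalings 6987 and 503 with all lines as library size (93.3%) and 1878 and 6244 with scaling on small nuclear RNA genes (23.1%), where the median fold change of all genes was 0.31, 0.57 and -0.66. Without 1 library they ran from 2576 to 3645 higher and from 1975 to 3109 lower. The median of the beta-tubulin fold changes ran from -0.14 to 0.72 without 1 library, and was 0.76 with all lines and -0.43 with scaling on small nuclear RNA genes, where 1 member was above 0. TUB5 was above 0 in all 14 alternatives and past the threshold in 13. These alternatives refit the same libraries and are not separate support. Over all genes the share called higher in them ran from 12.7% without a count filter to 59.9% with all lines as library size. Alpha-tubulin genes had 0 calls in 13 alternatives and 5 lower with scaling on small nuclear RNA genes. The other lists together had 4 higher and 1 lower, against 9 and 0 under library totals, 10 and 0 when all lines set the library size, 1 and 4 with scaling on small nuclear RNA genes, and 2 lower without a count filter. Without 1 library the higher ones ran from 2 (dxo1-2 replicate 3) to 8 (Col-0 replicate 3), with 1 lower each time. ATMAP65-6 turned to 0.23 with all lines. With only nuclear genes as library size the RNA-seq sum of the beta-tubulin genes was 574 CPM per kb, and without 1 library it ran from 288 to 299. As CPM without length, TUB4 made up 27.8% of the family, and 32.8% to 33.4% without 1 library. Correlations between the deviations of same-numbered dxo1-2 and Col-0 libraries were 0.11, -0.095 and -0.035, against 0.21 for dxo1-2 replicate 2 with Col-0 replicate 3. Deviations from a mean of 3 libraries are tied to each other, so these values do not settle whether the libraries were paired. With the replicate block 2913 genes were higher and 2571 lower, and 1 beta-tubulin gene, TUB5, was past the threshold. Leaving out 1 library leaves 2 in that genotype. A coding length was not run, since no table used here gives one. TUB1, TUB7, TUB8 and TUB9 had low counts, which limits their fold changes.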
